A study of Mus musculus with 4 samples.

Results

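Cyclins, cyclin-dependent kinases (CDKs), their inhibitors and the E2F and Rb proteins were compared between stem cells and absorptive cells of the mouse proximal intestine. The set was a fixed list of 54 genes, and each gene was represented by the probe set with the highest mean among those annotated to that gene alone. Of the 54 genes, 50 were measured, out of 12393 genes on the array, and E2f2, E2f7, Tfdp2 and Btg3 had no such probe set. Stem samples were flow-sorted Lgr5(hi) cells of wild type C57BL/6 mice (2 arrays). Enterocyte samples were differentiated villus cells released with EDTA from C57BL/6 mice whose intestinal epithelium had lost Atoh1 by an induced knockout (2 arrays). Mice were 4 to 6 weeks old, the tissue was proximal intestine, and tamoxifen at 1 mg per day for 5 days followed by a wait of 5 days is listed for all 4 samples, wild type included. The Cre driver and the animals behind each array are not given in the labels, so p-values measure the spread between these arrays. Genotype, cell type and isolation differ together between the groups and cannot be told apart.

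Cells divide when D-type cyclins with CDK4 or CDK6, and then E-type cyclins with CDK2, phosphorylate Rb and release the E2F transcription factors that switch on genes of DNA synthesis. A-type and B-type cyclins with CDK1 then drive S phase, G2 and mitosis. Inhibitors of the Ink4 and Cip/Kip families and the Rb family (pocket proteins) hold cells out of the cycle. In the intestine, division is confined to the crypt, and cells stop dividing as they move onto the villus.

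Values are normalized intensities, and differences are enterocyte minus stem on the log2 scale with limma's standard error (SE, n = 2 arrays per group). A gene was called at an adjusted p under 0.05 over all 12393 genes. Array medians lay between 102.4 and 110.6. A background level of 73.4 was set from 25 genes of other organs. Lgr5, the receptor used for the sort, read 2572 and 1989.5 in the stem and 121 and 68.1 in the enterocyte arrays. Atoh1, the factor of secretory fate that was deleted, read 173 and 209 in stem cells and 33.4 and 38.7 in enterocytes, below the background level. The labelled cell types had their markers: 9 of 10 measured stem cell markers were called lower and 9 of 9 enterocyte markers higher in enterocytes. Other cell types moved with the groups as well. The summed level of 11 lymphocyte markers was 651 and 904 in the stem and 8593 and 11632 in the enterocyte arrays, and 9 of them were called higher. Of 7 goblet markers all were lower (summed level 35921 and 42105 in stem, 648 and 1196 in enterocytes), and 4 Paneth markers summed to 34448 and 47214 in stem and to 663 and 6069.9 in enterocytes (2 called lower). Of 10 enteroendocrine markers 7 were lower (9825 and 11867 against 998 and 883), and of 6 tuft markers 5 were higher (638 and 455 against 3879 and 2614). Ptprc, the pan-leukocyte gene, read 32.6 and 32.0 in stem cells, below background, and 399 and 741 in enterocytes. Of 9 stromal and vessel markers 7 lay below background in each group, and of 7 myeloid markers 1 was higher and 2 were lower. The part of these cells in the differences below was not tested. In bulk RNA, fewer cells of a type and less RNA per cell cannot be told apart.

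The promoters of members that fell together are shown first, since genes of the late cell cycle are known to share short promoter elements. Both strands of the 250 bases before each annotated start were searched for an E2F site (TTTNNCGC), the cell cycle homology region or CHR (TTTGAA or TTCGAA), the CCAAT box (CCAAT), the GC box (GGGCGG), a FOXO site (GTAAACA) and, by name, the p53 element. E2F, CHR and CCAAT matches do not overlap each other in the sequences below. RefSeq promoters of build GRCm38.p6 were found for 39 of the 50 measured members. The first 4 sequences belong to genes that were lower in enterocytes, and capitals mark E2F, CHR and CCAAT matches in either orientation. In the printed promoter of Cdkn1a, which was higher, capitals mark the p53 element. A second annotated promoter of Cdkn1a, at chr17:29093519-29093768 (plus strand), is not printed because it held no p53 match. The windows are chr10:69352913-69353162 (minus strand) for Cdk1, chr9:70421555-70421804 (minus strand) for Ccnb2, chr3:89418292-89418541 (minus strand) for Cks1b, chr7:48881597-48881846 (minus strand) for E2f8 and chr17:29090729-29090978 (plus strand) for Cdkn1a.
Cdk1: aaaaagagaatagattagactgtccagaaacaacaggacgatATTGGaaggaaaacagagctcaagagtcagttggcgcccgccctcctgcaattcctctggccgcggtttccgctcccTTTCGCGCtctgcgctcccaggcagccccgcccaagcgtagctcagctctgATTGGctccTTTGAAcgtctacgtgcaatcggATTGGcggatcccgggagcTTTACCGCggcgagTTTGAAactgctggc
Ccnb2: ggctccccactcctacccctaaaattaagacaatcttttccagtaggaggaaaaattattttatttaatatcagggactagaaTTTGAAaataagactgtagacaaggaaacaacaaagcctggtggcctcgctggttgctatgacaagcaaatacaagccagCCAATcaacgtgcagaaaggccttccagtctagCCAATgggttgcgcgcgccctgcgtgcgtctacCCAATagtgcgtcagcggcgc
Cks1b: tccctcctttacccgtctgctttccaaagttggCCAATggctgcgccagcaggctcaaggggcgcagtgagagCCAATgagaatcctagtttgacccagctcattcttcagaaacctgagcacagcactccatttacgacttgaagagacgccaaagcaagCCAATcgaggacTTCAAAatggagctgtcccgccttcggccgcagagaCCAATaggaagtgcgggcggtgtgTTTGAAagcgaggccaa
E2f8: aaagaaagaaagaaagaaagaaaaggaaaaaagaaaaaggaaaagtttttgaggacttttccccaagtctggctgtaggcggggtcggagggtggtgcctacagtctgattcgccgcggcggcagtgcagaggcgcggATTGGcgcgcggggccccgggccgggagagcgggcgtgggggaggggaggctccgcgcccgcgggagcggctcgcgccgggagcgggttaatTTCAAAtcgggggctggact
Cdkn1a: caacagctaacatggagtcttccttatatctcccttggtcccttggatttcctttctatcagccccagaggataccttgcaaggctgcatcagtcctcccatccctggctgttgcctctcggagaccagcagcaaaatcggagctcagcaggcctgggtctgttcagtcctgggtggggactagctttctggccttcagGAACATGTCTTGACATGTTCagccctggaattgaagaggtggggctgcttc

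The Cdk1 promoter held 2 E2F matches, 2 CHR matches and 3 CCAAT boxes, the CHR nearest the start lying 15 to 10 bases before it. Ccnb2 held 3 CCAAT boxes, at 87, 54 and 21 bases before the start, and 1 CHR match farther out. Cks1b held 4 CCAAT boxes and 2 CHR matches, and E2f8 held 1 of each. Among the 17 lower members with a promoter in the table, 12 held a CCAAT box (70.6%), 6 a CHR match (35.3%) and 2 an E2F match (11.8%). The 15 members that were not called gave 53.3%, 6.67% and 33.3%, and the 7 higher members 42.9%, 28.6% and 14.3%. Over all 9887 measured genes with a promoter these shares were 39.9%, 15.5% and 7.36%, and over all 32817 promoters 33.8%, 17.1% and 4.28%. Measured genes called lower gave 43.6%, 15.7% and 11.1%, and those called higher 39.2%, 13.0% and 5.98%. A GC box stood in 14 of 17 lower, 5 of 7 higher and 12 of 15 uncalled members, against 57.0% of measured genes and 32.7% of all promoters. The FOXO site stood in 2 members, both uncalled, against 2.91% and 3.16%. The p53 element was searched over 20 bases with no spacer and at most 1 position off, a rule chosen after the Cdkn1a sequence had been seen. It matched in 25 of 32817 promoters (0.0762%), the printed promoter of Cdkn1a and that of Ccng1 among them. A match describes letters in a window and is not evidence of binding.

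Across the family, 21 of the 50 measured members fell and 8 rose in enterocytes, while 21 did not pass the test. Of all genes, 22.4% were called lower and 18.2% higher, against 42% and 16% of these members. Falls of at least 2-fold were called in 14 members (13.6% of all genes) and such rises in 5 (10.8% of all genes). The median difference was -0.50 over the members and -0.0026 over all genes. Both enterocyte arrays lay below both stem arrays in 29 members (34.8% of all genes) and above them in 12 (30.5% of all genes), and the groups overlapped in 9 (65.3% of all genes did not overlap). By scaling the arrays to 9 reference genes the split became 4 higher and 34 lower (reference level) or 6 and 30 (reference differences). With these scalings the median of all genes moved by -0.62 and by -0.31, and 54.1% and 49.8% of all genes were called lower. The member median lay 0.49 below that of all genes in each of these. That gap could not change, because each scaling moves all genes alike. With stem replicate 1 or 2 left out, the member median was -0.49 and -0.38. Leaving out an array leaves no replicate in its group, so no counts of calls are given for such fits. When enterocyte replicate 1 or 2 was dropped, the member median was -0.42 and -0.45.

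**Figure D1:**
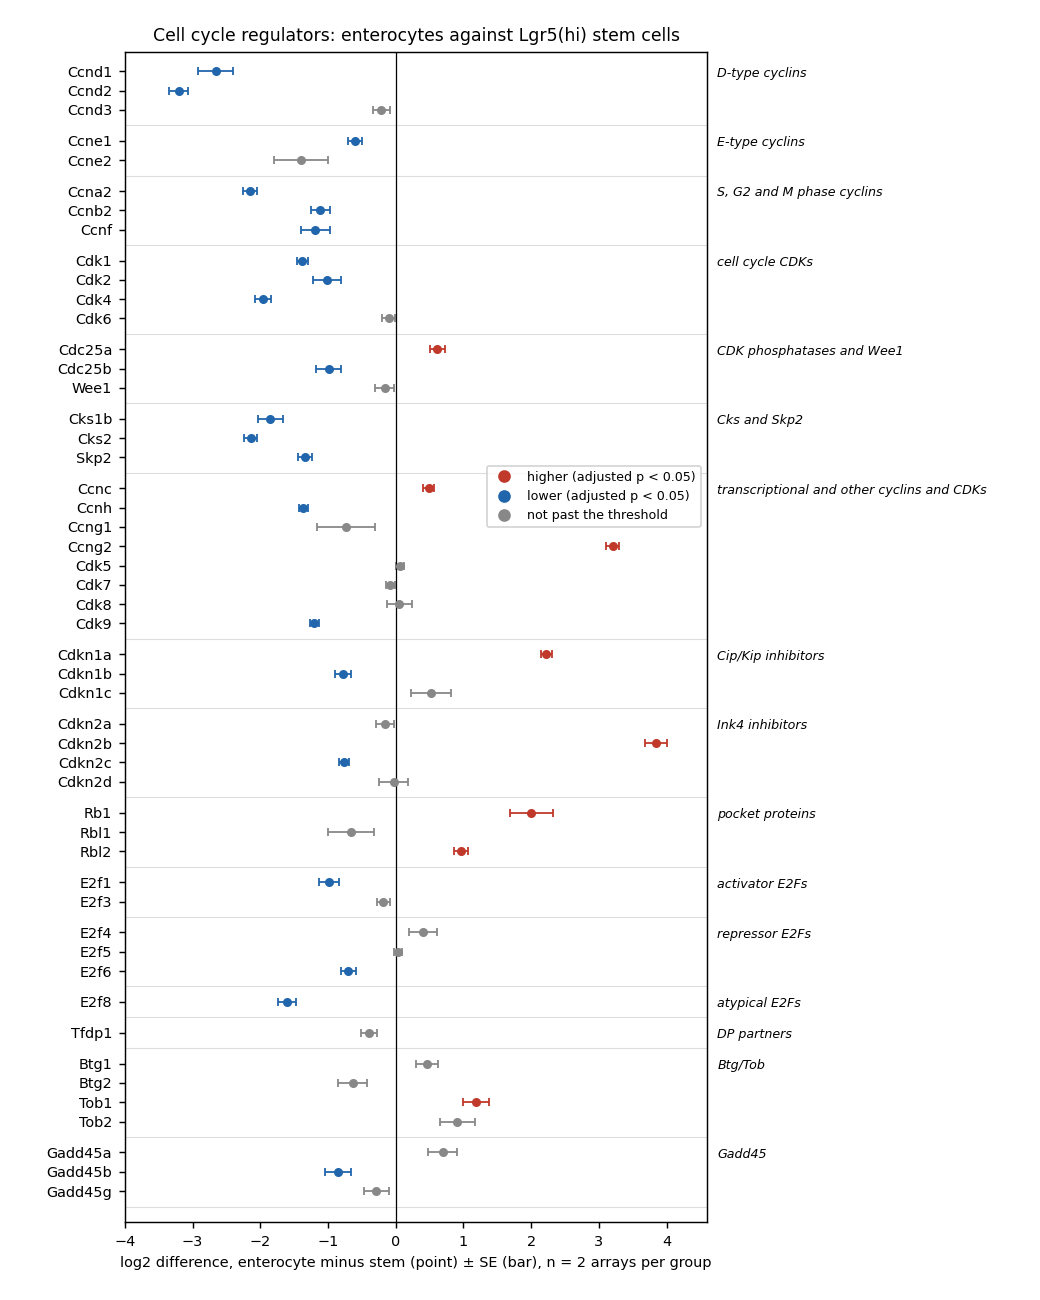
Log2 difference (enterocyte minus stem, horizontal axis) of the 50 measured members, grouped by role; points are the fitted differences and bars the SE (n = 2 arrays per group). Blue points (21 members) were lower and red points (8) higher at an adjusted p under 0.05, and Cdkn2b, Ccng2, Cdkn1a and Rb1 stand farthest to the right.

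D-type cyclins, which couple growth signals to the cycle, held the 2 lowest differences of the set. Ccnd2 read 6693 and 8454 in stem cells and 829 and 802 in enterocytes. It was 9.22-fold lower (-3.21 ± 0.14 SE, adjusted p = 0.00323), the 61st lowest difference of all 12393 genes. Its probe set is of a type (_x_at) that can bind related transcripts. The 6 other probe sets of Ccnd2 gave -3.05 to -0.43, and only the dimmest of them, at -0.43, did not pass (adjusted p = 0.0828 over all probe sets). Ccnd1 read 2075 and 2135 in stem cells and 414 and 268 in enterocytes, 6.32-fold lower (-2.66 ± 0.25 SE, adjusted p = 0.00784). Its enterocyte arrays differed more than its stem arrays but stayed far below them. On its dimmest probe set it gave -1.62, not past the threshold. The third member, Ccnd3, read 163 and 168 against 158 and 129, a difference of -0.21 ± 0.13 SE that did not pass (adjusted p = 0.294).

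Of the kinases that D-type cyclins activate, Cdk4 fell and Cdk6 was too dim to read. Cdk4 read 2763 and 2844 in stem cells and 796 and 653 in enterocytes, 3.89-fold lower (-1.96 ± 0.12 SE, adjusted p = 0.00451). All 3 of its probe sets fell, from -2.36 to -1.33. Cdk6, the alternative kinase, read 54.6 and 47.2 against 47.2 and 47.2, below the background level in both groups, so no fold is given.

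Of the E-type cyclins, which act at the entry into S phase, Ccne1 fell and Ccne2 did not pass. Ccne1 read 177 and 209 in stem cells and 126 and 128 in enterocytes, a fall of 1.51-fold (-0.60 ± 0.11 SE, adjusted p = 0.0282). The call was lost after quantile normalization and when dim values were raised to background. Ccne2 read 274 and 280.2 in the stem group and 74.3 and 149.5 in the enterocyte group. The groups did not overlap, but its enterocyte arrays lay about as far apart as any member's, and the difference of -1.39 ± 0.40 SE did not pass (adjusted p = 0.0783). Their kinase Cdk2 read 579 and 526 against 324 and 229 and fell 2.03-fold (-1.02 ± 0.21 SE, adjusted p = 0.0375). That call did not hold when dim values were raised to background or when each gene was read on its dimmest probe set.

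All 3 cyclins of S phase, G2 and mitosis fell. Ccna2, which acts in S phase and G2, read 2625 and 2272 in stem cells and 565 and 534 in enterocytes, 4.44-fold lower (-2.15 ± 0.10 SE, adjusted p = 0.00335). Ccnb2, a mitotic cyclin, read 1266 and 1016 against 553 and 499, 2.16-fold lower (-1.11 ± 0.15 SE, adjusted p = 0.0144). Ccnf, a cyclin that serves as the substrate receptor of a ubiquitin ligase, read 245 and 171 against 93.7 and 86.2 (-1.19 ± 0.21 SE, adjusted p = 0.0276), and this call was lost with values raised to background. Cdk1, the mitotic kinase, read 1192 and 1127 against 466 and 426, 2.60-fold lower (-1.38 ± 0.08 SE, adjusted p = 0.00392). For Cdk1 and Ccnb2, which share CCAAT and CHR matches in the promoters above, enterocyte levels stayed well over the background of 73.4. The B-type cyclin Ccnb1 was not measured by a probe set of its own.

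**Figure D2:**
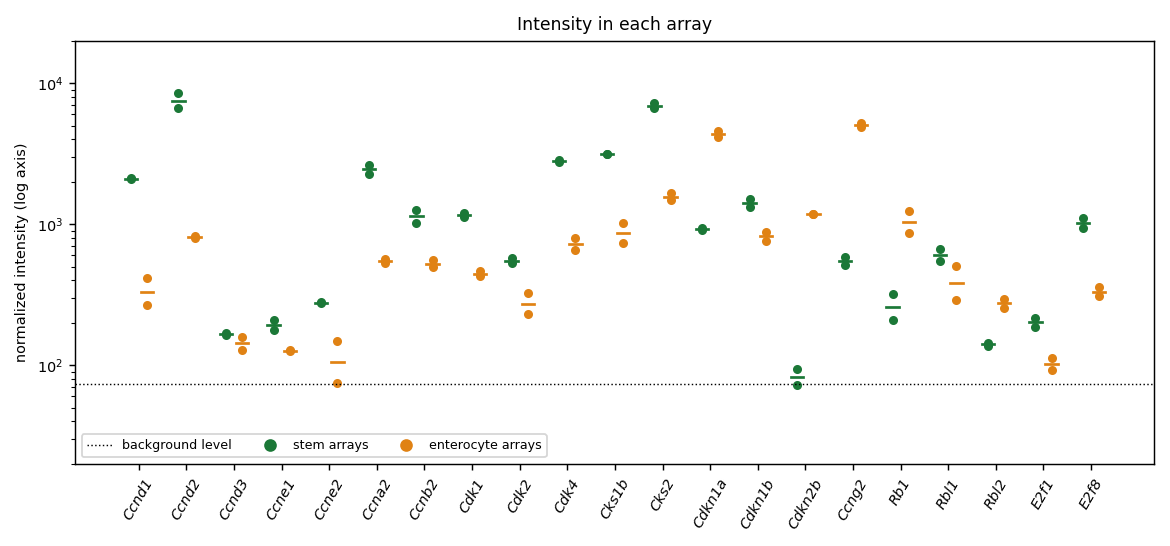
Normalized intensity (vertical log axis) of 21 members in each of the 2 stem (green) and 2 enterocyte (orange) arrays; horizontal ticks are geometric means and the dotted line is the background level of 73.4. Stem points of Ccnd2, Cdk4 and Cks2 lie far above the enterocyte points, and the order is reversed for Cdkn1a, Cdkn2b, Ccng2 and Rb1.

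The small adaptor genes of CDK complexes and their partner Skp2 all fell. Cks2 read 7214 and 6648 in stem cells and 1671 and 1476 in enterocytes, 4.41-fold lower (-2.14 ± 0.10 SE, adjusted p = 0.00327), and its second probe set gave -1.67. Cks1b, whose product also helps Skp2 to recognize the inhibitor encoded by Cdkn1b, read 3128 and 3122 against 1011 and 739, 3.62-fold lower (-1.85 ± 0.19 SE, adjusted p = 0.00859). Skp2, the receptor of that ubiquitin ligase, read 449 and 479.5 against 171 and 197, 2.53-fold lower (-1.34 ± 0.10 SE, adjusted p = 0.00564). Skp2 had 6 probe sets, of which 3 fell. Its dimmest, below background in both groups, gave 1.09 and did not pass, and the call was also lost with the mean of all 6 and when sets ending _x_at, _s_at or _a_at, the type of the one used, were left out.

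Enzymes that switch CDK activity did not move as one. Cdc25b, a phosphatase that activates CDKs at mitosis, read 265 and 212 in stem cells and 133 and 107 in enterocytes, 1.98-fold lower (-0.99 ± 0.19 SE, adjusted p = 0.0309), a call lost with values raised to background. Cdc25a, the phosphatase of the same family that acts from late G1 on, went the other way. It read 1081 and 1254 in stem cells and 1873 and 1699 in enterocytes, 1.53-fold higher (0.62 ± 0.11 SE, adjusted p = 0.0288), and both enterocyte arrays lay above both stem arrays. The rise was not stable: the call was lost in 6 of 12 alternatives, the value was -0.0024 when arrays were scaled to the reference level, and its second probe set gave 0.32, not past the threshold. Wee1, the kinase that opposes these phosphatases, read 665 and 583 against 614 and 507 with overlapping groups (-0.16 ± 0.14 SE, adjusted p = 0.445). The second Wee1 probe set, below background in both groups, gave 0.41 (adjusted p = 0.0491 over all probe sets).

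Inhibitors of CDKs were divided within each family. Cdkn2b, an Ink4 inhibitor of CDK4 and CDK6 known as a target of TGF-beta signalling, had the largest rise of the members. Its stem values were 93.7 and 71.8, the second under the background level, and both enterocyte values were 1175. That was 14.3-fold higher (3.84 ± 0.16 SE, adjusted p = 0.00305), the 135th highest difference of all genes. Cdkn2c, another Ink4 gene, fell 1.69-fold from 432 and 427 to 242 and 266 (-0.76 ± 0.07 SE, adjusted p = 0.00808). Cdkn2d read 227 and 157 in stem cells and 183 and 187 in enterocytes, with overlapping groups and a difference of -0.03 ± 0.22 SE (adjusted p = 0.93). Cdkn2a lay at 16.8 to 20.9 in all 4 arrays, below background.

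In the Cip/Kip family, Cdkn1a rose and Cdkn1b fell. Cdkn1a, a broad CDK inhibitor and well-known p53 target, read 945 and 910.2 in stem cells and 4548 and 4124 in enterocytes, 4.67-fold higher (2.22 ± 0.08 SE, adjusted p = 0.00265). The second probe set of Cdkn1a read 311 and 335 against 3059 and 3317, a difference of 3.30 ± 0.08 SE, so both measured the rise. Cdkn1b, which is also controlled by protein breakdown through Skp2, read 1504 and 1333 against 765 and 885 (-0.78 ± 0.12 SE, adjusted p = 0.0191). The fall of Cdkn1b rests on its brighter probe set: the other gave 0.11 ± 0.39 SE, and the call was lost in 5 of 12 alternatives. Cdkn1c, the third member, read 150.3 and 201 against 201 and 307 with overlapping groups (0.52 ± 0.30 SE, adjusted p = 0.285).

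Among the pocket proteins, Rb1 and Rbl2 rose. Rb1, the retinoblastoma protein gene, read 318 and 208 in stem cells and 861 and 1232 in enterocytes, 4.00-fold higher (SE 0.32 on the log2 scale, adjusted p = 0.0214). Its arrays were spread in both groups (0.61 in stem and 0.52 in enterocytes on the log2 scale) without overlap. The call was lost in 2 of 12 alternatives, among them values raised to background. Rbl2, whose product p130 binds E2F in resting cells, read 143 and 137 against 253 and 296, 1.95-fold higher (0.96 ± 0.11 SE, adjusted p = 0.00998). The Rbl2 call was lost on its dimmest probe set and under scaling to the reference level. Rbl1, whose product p107 is typical of cycling cells, read 662 and 552 in stem cells and 290.1 and 506 in enterocytes (-0.66 ± 0.34 SE, adjusted p = 0.237). The second probe set of Rbl1 was lower, at -1.35 ± 0.23 SE (adjusted p = 0.0291 over all probe sets).

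E2F genes fell or did not pass. The activator E2f1 read 187 and 217 in stem cells and 112 and 91.8 in enterocytes, 1.98-fold lower (-0.99 ± 0.15 SE, adjusted p = 0.0196), a call lost in 4 of 12 alternatives. E2f3, the other activator measured, stayed close to background in every array, from 62.8 to 76.8 (-0.18 ± 0.10 SE). E2f8, an atypical repressor that is itself made in S phase, read 1099.5 and 939 against 358 and 309, 3.05-fold lower (-1.61 ± 0.13 SE, adjusted p = 0.00637). E2f6, a repressor that acts without Rb proteins, fell 1.63-fold from 319 and 362 to 222 and 197 (-0.70 ± 0.11 SE, adjusted p = 0.0203), and its call was lost in 2 of 12 alternatives, among them values raised to background. The repressor E2f4, the partner of p130 in resting cells, lay near background at 79.2 and 57.5 against 95.9 and 82.4 (0.40 ± 0.21 SE, adjusted p = 0.246). E2f5 read 335 in 3 arrays and 352 in enterocyte replicate 1, while its second probe set was higher by 0.39 ± 0.05 SE (adjusted p = 0.0161 over all probe sets). The E2F partner Tfdp1 read 1049.5 and 1134 against 908 and 758 (-0.39 ± 0.12 SE, adjusted p = 0.092).

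Cyclins and CDKs of transcription and of other tasks went in both directions: 2 of 8 rose, 2 fell and 4 did not pass. These shares, 25% each way, lay near the 18.2% of all genes called higher and 22.4% called lower. Ccng2, a cyclin known to rise in cells that leave the cycle, read 581 and 516 in stem cells and 5261 and 4852 in enterocytes, 9.23-fold higher (3.21 ± 0.10 SE, adjusted p = 0.00261). The rise had the 212th highest value of all genes, and the second probe set gave 4.08. Its relative Ccng1, a p53 target, read 1509.7 and 1144 in stem cells and 556 and 1126 in enterocytes. Only enterocyte replicate 1 stood clearly apart, the difference of -0.73 ± 0.43 SE did not pass (adjusted p = 0.297), and its 2 other probe sets gave 0.71 and 0.79, not past the threshold. Ccnh, the cyclin of the CDK-activating kinase, read 1373 and 1378 against 519 and 551, 2.57-fold lower (-1.36 ± 0.06 SE, adjusted p = 0.00323). Its kinase Cdk7 read 488 and 463 against 458 and 442 (-0.08 ± 0.06 SE, adjusted p = 0.406). Cdk9, the kinase that releases paused RNA polymerase, fell 2.30-fold from 1707 and 1821 to 752 and 783 (SE 0.07 on the log2 scale, adjusted p = 0.00382).

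Ccnc, the cyclin of the Mediator kinase, read 123 and 111 in stem cells and 161 and 166 in enterocytes, 1.40-fold higher (0.49 ± 0.08 SE, adjusted p = 0.0215). That rise was lost in 6 of 12 alternatives and became -0.13 under scaling to the reference level. Its kinase Cdk8 read 1077 in each stem array, between the enterocyte values of 957 and 1309 (0.06 ± 0.18 SE, adjusted p = 0.842). Cdk5, an atypical CDK best known from neurons, read 299 and 288 against 313 and 299 (0.06 ± 0.06 SE, adjusted p = 0.501).

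Antiproliferative genes of the Btg/Tob family gave 1 rise among 4 measured (25%, near the 18.2% of all genes called higher). Tob1 read 2503 and 2021 in stem cells and 5754 and 4523 in enterocytes, 2.27-fold higher (1.18 ± 0.19 SE, adjusted p = 0.0216), a call lost under scaling to the reference level and with values raised to background. Its relative Tob2 read 857 and 995 against 2140.4 and 1406 (0.91 ± 0.26 SE, adjusted p = 0.0761), but this is an _x_at probe set. The others ranged from -0.40 to 0.35, and the one at -0.40 was called lower (adjusted p = 0.0392 over all probe sets). Btg1 read 4381 and 3349 against 5258 and 5342 (0.47 ± 0.16 SE, adjusted p = 0.114). Btg2, also a p53 target, had probe sets that disagreed. The brighter read 3259.9 and 4397 in stem cells and 2208 and 2685 in enterocytes (-0.64 ± 0.21 SE, adjusted p = 0.103), and the dimmer read 578 and 563 against 1262 and 1188 (1.10 ± 0.06 SE, adjusted p = 0.00476 over all probe sets).

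Of the stress-induced Gadd45 genes, Gadd45b fell 1.80-fold from 771 and 1046 to 527 and 470.3 (-0.85 ± 0.19 SE, adjusted p = 0.0458). Its 2 other probe sets gave -0.86 and -1.73, while the call was lost in 4 of 12 alternatives. Gadd45a read 867 and 923 in stem cells and 1735 and 1212 in enterocytes (0.70 ± 0.21 SE, adjusted p = 0.0887). The groups of Gadd45a did not overlap, although the enterocyte arrays lay 0.52 apart on the log2 scale. Gadd45g read 479 and 553 against 484 and 368, with overlapping groups (-0.28 ± 0.18 SE, adjusted p = 0.325).

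Different probe sets of a gene served as a second reading. Of the 50 members 25 had several, which gave 42 further probe sets, and 35 of these pointed the same way as the one used. For called members there were 30 further probe sets, of which 19 were called in the same direction and 0 in the opposite direction (limma over all probe sets, 20380 tested). The 7 that pointed the other way belonged to Skp2, Cdkn1b, Ccng1, Btg2, Wee1 and Tob2, with 2 in Ccng1.

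**Figure D3:**
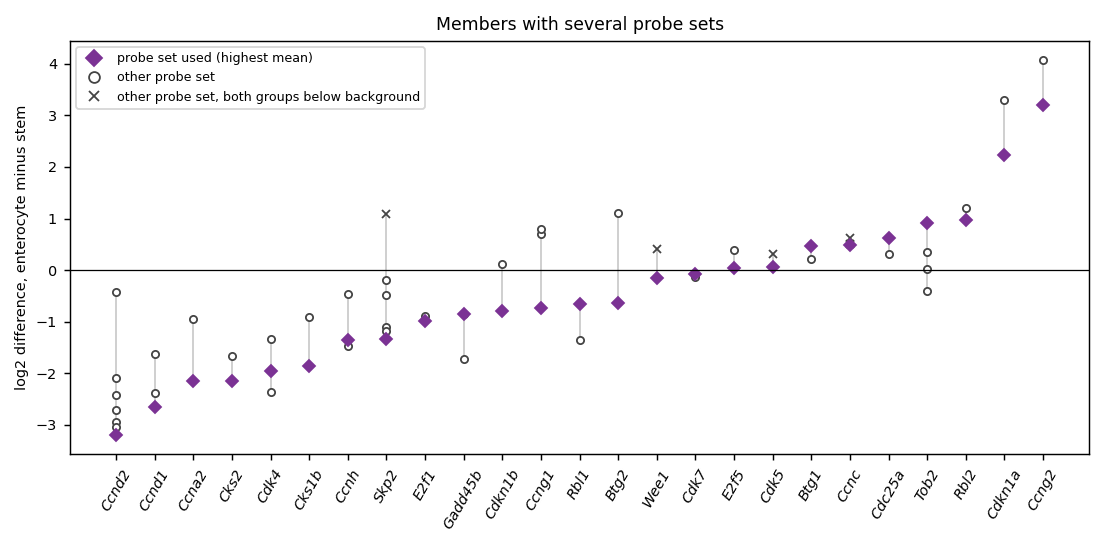
Log2 difference (enterocyte minus stem, vertical axis) of every probe set of the 25 members with several; diamonds are the probe sets used, open circles other probe sets, and crosses other probe sets with both groups below background. The probe sets of Cdkn1a and Ccng2 all lie above 0 and those of Ccnd1, Ccnd2 and Cdk4 all below it, while those of Btg2 and Ccng1 lie on both sides.

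Downstream of these regulators, genes that E2F switches on for DNA synthesis were lower: 17 of 19 measured fell, 0 rose, and the median difference was -1.77. The lowest were Pola1 (at least 5.15-fold, -2.77 ± 0.43 SE), a polymerase subunit, Uhrf1 (-2.54 ± 0.24 SE), which maintains DNA methylation and whose call was lost on its dimmest probe set, and the helicase subunit Mcm7 (-2.53 ± 0.13 SE). Of 18 mitotic regulators 16 fell and 0 rose, at a median of -1.73, led by Mki67 (-3.58 ± 0.29 SE), Cenpe (at least 8.98-fold, -3.52 ± 0.52 SE) and Bub1 (-2.77 ± 0.39 SE), a spindle checkpoint kinase whose call was also lost on its dimmest probe set. "At least" marks a fold against a group below the background level. Of all genes 22.4% were called lower. On the lowest-mean probe set 11 E2F targets fell, where 15.7% of all genes were called lower. With stem replicate 1 or 2 left out, the E2F target median was -1.69 and -1.70, and the mitotic median -1.57 and -1.86. With enterocyte replicate 1 or 2 left out, these medians were -1.87 and -1.59 for E2F targets and -1.65 and -1.81 for mitotic regulators. In all these fits the medians of the ligase genes, DREAM partners and other cyclins and CDKs described next ran from -0.89 to -0.32. 

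Ligases that destroy cyclins and inhibitors showed 11 falls, 1 rise and 8 genes that did not pass, out of 20, against 22.4% of all genes lower and 18.2% higher. The falls numbered 16 and 17 under the reference scalings and 7 with values raised to background. Of all genes 54.1%, 49.8% and 15.1% were lower in those fits. Cdc20, the mitotic activator of the anaphase-promoting complex, read 4333 and 3844 in stem cells and 1074 and 1009.5 in enterocytes (-1.97 ± 0.09 SE, adjusted p = 0.0033). The subunit genes Anapc5 and Cdc16 gave -2.01 and -1.82, but Anapc5 was at -0.09 and uncalled on its dimmest probe set. Fzr1, the activator that serves in G1 and in resting cells, was the gene that rose, from 128 and 101 to 248 and 213 (1.02 ± 0.17 SE, adjusted p = 0.0225). Scaling to the reference level, and values raised to background, ended the Fzr1 call. Among partners of the DREAM repressor, 5 of 9 fell and 0 rose, against 22.4% of all genes called lower. The count was 3 with the median of probe sets (21.1% of all genes lower) or the lowest-mean probe set (15.7%). It was 8 under either reference scaling, where 54.1% and 49.8% of all genes were lower. Lin9 was at least 3.25-fold lower, and Hdac2 and Rbbp7, shared with many chromatin complexes, gave -1.82 and -1.51.

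Of 20 other cyclins, CDKs and regulators 3 rose, 9 fell and 8 did not pass (60% called), against 40.6% of all genes called in either direction. The falls numbered 14 and 13 under the reference scalings, where 54.1% and 49.8% of all genes were lower. They numbered 5 on the lowest-mean probe set (15.7% of all genes) or with values raised to background (15.1%). The splicing cyclins Ccnl1 and Ccnl2 fell (-2.93 ± 0.23 and -1.49 ± 0.05 SE), and Cdc25c was at least 1.44-fold lower. The Ccnl2 call was lost on its dimmest probe set. Ccnj, Cdk18 and Cables1 were higher by 2.03 ± 0.39, 1.85 ± 0.15 and 0.83 ± 0.16 SE. With values raised to background the calls of Cdc25c, Ccnj and Cables1 were lost, and that of Cables1 also under both reference scalings.

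Among 17 genes of the p53 pathway there were 5 rises, 3 falls and a median difference of 0, and the 47.1% called lay near the 40.6% of all genes. The death receptor gene Fas (at least 3.41-fold, 2.98 ± 0.06 SE), the desmosome gene Perp (2.24 ± 0.11 SE) and the apoptosis gene Pmaip1 (1.58 ± 0.22 SE) rose. The p53 inhibitor gene Mdm4 (-1.17 ± 0.09 SE), Bbc3 and Plk2 were lower (-0.56 and -0.23). The Plk2 call was lost in 4 of 12 alternatives, that of Mdm4 in 2 and that of Pmaip1 with values raised to background. Scaling to the reference level turned this split to 3 higher and 9 lower, and values raised to background left 2 higher and 3 lower. In those fits 54.1% and 15.1% of all genes were lower. Lymphocyte markers were higher in the same enterocyte arrays (9 of 11), and their part in the p53 list was not tested.

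Of 18 genes listed as mitogen inputs to cyclin D, 5 rose, 3 fell and 10 were uncalled. The list is mixed and also holds Klf4, which restrains division, and Smad and Foxo genes, so these counts give no direction for growth signals. The 44.4% called lay near the 40.6% of all genes. The split became 2 higher and 8 lower when scaled to the reference level, where 54.1% of all genes were lower. Jun fell from 8063 and 7973 to 1668 and 1233 (-2.48 ± 0.18 SE, adjusted p = 0.00522), Myc from 1509 and 1379 to 419 and 322 (-1.97 ± 0.17 SE, adjusted p = 0.00649), and the receptor gene Erbb2 gave -0.94 ± 0.07 SE. Map2k1, a kinase upstream of ERK, rose from 366 and 313 to 1565 and 1591 (2.22 ± 0.10 SE, adjusted p = 0.00331). Klf4, a factor of the villus that restrains division, rose from 1874 and 2309 to 5188 and 5311 (1.34 ± 0.13 SE, adjusted p = 0.00817). Tcf7l2, the main nuclear partner of beta-catenin in crypts, was higher by 0.97 ± 0.22 SE (adjusted p = 0.0459), a call lost in 6 of 12 alternatives.

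**Figure D4:**
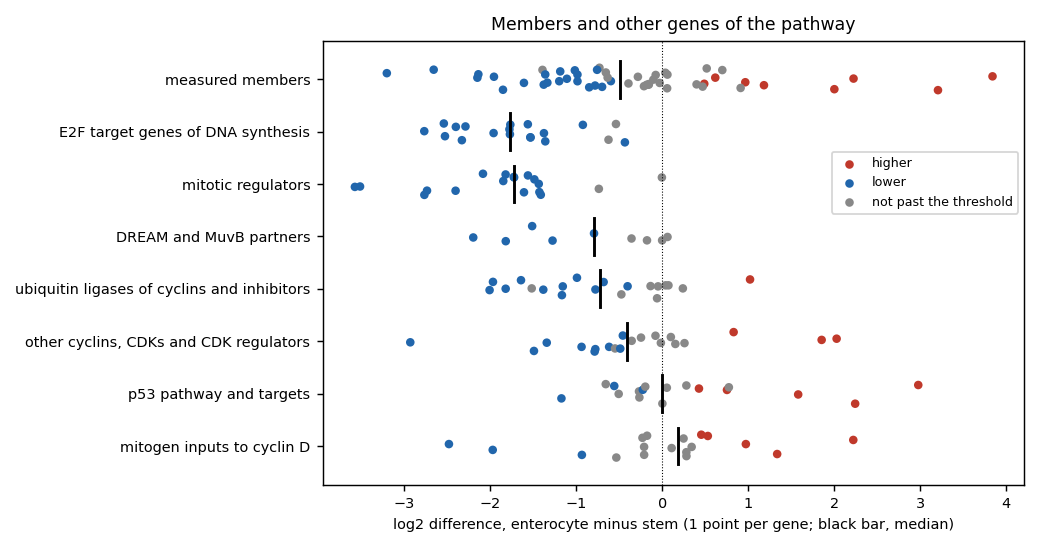
Log2 difference (enterocyte minus stem, horizontal axis) of each gene, 1 point per gene, for the 50 measured members and 7 lists of other genes of the pathway; vertical spread within a list is only for legibility and black bars are medians. Medians run from -1.77 for E2F target genes of DNA synthesis to 0.18 for mitogen inputs to cyclin D, and the members lie at -0.50 with points on both sides of 0.

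Variation between replicates differed among members. The median gap between the 2 arrays of a group was 0.19 in stem and 0.20 in enterocytes on the log2 scale. It reached 1.02 for Ccng1, 1.01 for Ccne2 and 0.80 for Rbl1 among the enterocyte arrays, where replicate 1 was the lower in each. Among the stem arrays the widest gap was 0.61, for Rb1. Of the 29 called members, 13 were called in the same direction under all 12 alternatives that keep the 4 arrays. Of these 10 were lower (Ccna2, Ccnb2, Cdk1, Cdk4, Cks1b, Cks2, Ccnh, Cdk9, Cdkn2c and E2f8) and 3 higher (Ccng2, Cdkn1a and Cdkn2b). Ccnb2, Cdk1, Cdk9, Cdkn2b, Cdkn2c and E2f8 had 1 probe set each, so alternatives that change the probe set could not alter their values. All 29 kept their sign without any 1 of the arrays. That outcome was fixed in advance, because the groups of each of these members did not overlap.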

How the data were processed

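RNA was measured on 4 Affymetrix mouse arrays. The authors deposited normalized intensity values, 1 per probe set, that are linear (7.93 to 41704). RMA is named per the submitters' processing notes. Normalization between arrays is not given in sources used here. As planned for linear values, log2 of the deposited intensity was taken with no pseudocount. Per the platform annotation, 20380 of 22690 probe sets had exactly 1 gene symbol, 691 had several and 1606 were not listed. Members and gene lists were chosen with earlier results of these data known.

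Groups were compared by limma (3.58.1, R version 4.3.3; lmFit, eBayes), and two-sided p-values were adjusted by Benjamini-Hochberg across 12393 genes (2 residual and 1.23 prior degrees of freedom). Replicates had identical values in 1268 genes of the stem and 1048 of the enterocyte group (2 members in each). The background level was the 90th percentile of 25 genes of other organs, of which 3 were called. Named genes were all members, Atoh1, Lgr5 and Ptprc as label checks, and in each pathway list up to 3 called genes per direction, with Ccnb1, Mki67, Myc and Trp53 whatever their p where measured. Control probe sets (64) differed between groups by a median of 0.62 (log2). The fit was tested on simulated data. The number of arrays limits the precision. No column was without a sample (0 columns).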

Additional observations from a re-analysis of the deposited data

How the results depend on the processing

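Of 12 alternatives that keep all 4 arrays, limma with trend and robust and log2 of value plus 16 moved no member's call. With 8 members higher and 21 lower as reported, 5 were higher with the replicate block, 5 with values raised to background, and 4 were higher and 34 lower when centred on the median level of the reference genes. Counts over all genes moved too: 2257 were higher as reported, 2010 with the block and 1515 with values raised to background. Centring gave 1148 of all genes higher and 6700 lower. The replicate block left 18 members lower (2557 of all genes, against 2779 as reported). The same replicate number had correlated deviations of 0.05 over all genes, so the numbers were not taken as pairs. The median difference of -0.50 was -0.25 with the mean or the median of probe sets, -0.17 on the lowest-mean probe set, -0.64 without genes below background, -1.11 centred on the reference level and -0.80 shifted by the reference differences. Leaving out 1 array gave 0 to 3 members higher and 0 to 9 lower, the 0 counts being without either stem array (limma). At an unadjusted p under 0.05 those fits had 9 higher and 18 lower, and 7 and 22. The block ended the calls of Rb1, Cdc25a, Ccnc, Cdkn1b, E2f1, E2f6 and Gadd45b. Among members called in either fit, signs turned on the lowest-mean probe set for Btg2 (1.10), Cdkn1b (0.11) and Skp2 (1.09), without probe sets ending _x_at, _s_at or _a_at for Tob2 (-0.40), under reference level centring for Ccnc (-0.13) and Cdc25a (-0.0024), and under the reference difference shift for Cdk5 (-0.25) and E2f5 (-0.27). Members called in neither fit turned too: 6 under level centring (Btg1, Cdk5, Cdk8, Cdkn1c, E2f4 and E2f5), 2 on the lowest-mean probe set (Ccng1, 0.79, and Wee1, 0.41), Ccng1 without the suffixed probe sets (0.71) and Cdk8 under the shift. Uncalled members also turned with the mean (3) or median (4) of probe sets, after quantile normalization (4) and in 2 of the fits without 1 array (Cdk8 and Cdkn2d). Beyond the probe sets and shifts themselves, the cause was not tested. Signal over background limits what can be read for E2f3 and E2f4, whose values lie near the background level, and for Cdk6 and Cdkn2a, which lie below it.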
